A study of Mus musculus with 12 samples.

Results

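Transcripts of 10 basophil genes were followed in macrophage sorts from mouse gliomas. The genes were Mcpt8, Hdc, Cyp11a1, Gata2, Il4, Il13, Cd200r3, Fcer1a, Ms4a2 and Prss34. Each symbol matched 1 of the 54532 rows of the count table, and all 10 were among the 35308 genes with a count in any library. The genes were put together because several of them were known to be far lower in rhodamine-positive sorts, so their difference between the sorts is described here without a test. Tumour-associated macrophages came from 6 glioma-bearing mice labelled Ntv-a_Ink4a/Arf_KO, an Ink4a/Arf-deficient background in which the nestin promoter drives an avian retrovirus receptor. Every mouse had received rhodamine-labelled perfluoro-crown-ether nanoparticles intravenously, and the tumours were taken 24 hours later. Each mouse gave 1 rhodamine-positive sort, the cells that took up particles, and 1 rhodamine-negative sort, the cells that did not, which makes 6 libraries per group. By the labels, 4 mice are male (1 to 4) and 2 are female (5 and 6), and all share 1 batch label; no age and no uninjected mouse is given in the sources used here. The gate, as described, took cells positive for CD45 and CD11b and negative for Ly6C, and more than 2000 cells entered each sort.

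Basophils are rare granulocytes that circulate in blood and enter inflamed tissue. They bind IgE through the high-affinity receptor FceRI and release histamine, proteases and lipid mediators when it is crosslinked, and they are a major early source of interleukin-4 in mice. Mouse basophils carry CD45 and CD11b on their surface, and how the Ly6C step of the gate acts on them is not given in the sources used here. In bulk RNA, fewer cells of a type and less RNA per cell cannot be told apart.

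The libraries held 13073189 to 17379314 counts in the rhodamine-positive and 13421387 to 16167832 in the rhodamine-negative group, and all levels below are CPM, the counts relative to library size after TMM scaling, which evens out differences in RNA composition. At this depth 3 counts, taken as the limit that a count of 0 allows, correspond to 0.187 to 0.239 CPM in the rhodamine-positive libraries. Markers of the sorted macrophages were abundant in both groups. The summed level of Ptprc, Itgam, Csf1r, Adgre1, Cd68 and C1qa was 10239.9 to 11902.5 CPM in rhodamine-positive and 5054 to 9329 CPM in rhodamine-negative libraries. The lowest of these, 5054 CPM, was that of mouse 5. Across all genes, edgeR's quasi-likelihood test with the mouse as a block called 1781 of 35308 genes higher (5.04%) and 2180 lower (6.17%) in rhodamine-positive sorts. Of the 6 macrophage markers 4 rose, Ptprc fell and 1 did not pass. Scaled to library size alone, the split was 770 higher and 3323 lower, and the median of all genes moved to -0.40 on the log2 scale, against -0.23 with TMM.

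Of the 10 genes Hdc had the most counts, 9112 of 16338 over the rhodamine-negative libraries. Hdc encodes histidine decarboxylase, which makes histamine. Its level in rhodamine-positive libraries had a lowest value of 0, a median of 1.4 and a highest value of 17.6 CPM, against 4.63, 38.3 and 312.5 CPM in rhodamine-negative libraries. Mcpt8 encodes a protease stored in the granules of mouse basophils and hardly made by other cells. It had no count in 5 of 6 rhodamine-positive libraries and reached 1.61 CPM in the sixth, that of mouse 5, against a lowest value of 0.322, a median of 4.53 and a highest value of 49.8 CPM in rhodamine-negative libraries. Mcpt8 and Hdc were lower in the rhodamine-positive sort of all 6 mice. Means were 0.269 ± 0.658 and 15.8 ± 20.7 CPM for Mcpt8 in rhodamine-positive and rhodamine-negative sorts (SD, n = 6 each), a ratio of 58.9-fold. For Hdc they were 4.16 ± 6.79 CPM in rhodamine-positive and 98.8 ± 122 CPM in rhodamine-negative sorts (SD, n = 6 each), a ratio of 23.7-fold. The size of the Mcpt8 ratio rested on the mice with the most transcript. Without mouse 5 no rhodamine-positive count was left and Mcpt8 was at least 287.5-fold lower, taking 3 counts over the group as the floor, and without mouse 3 it was 27.9-fold lower.

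Prss34 encodes a further serine protease of basophil granules, and Cyp11a1 the mitochondrial enzyme that starts steroid synthesis from cholesterol. Cyp11a1 had 0 counts in 3 rhodamine-positive libraries, 1 count each in mice 2 and 3 and 51 counts in mouse 5. In rhodamine-negative libraries Cyp11a1 ranged from 35 counts in mouse 4 to 1075 counts in mouse 5. The ratio of the Cyp11a1 means was 34.7-fold, from 0.619 ± 1.45 CPM in rhodamine-positive and 21.5 ± 25.9 CPM in rhodamine-negative sorts (SD, n = 6 each), and 431-fold without mouse 5. Cyp11a1 was lower in the rhodamine-positive sort of 6 of 6 mice, as Mcpt8 and Hdc were. Prss34 was detected in 2 rhodamine-positive libraries, with 5 counts in mouse 4 and 8 in mouse 5. In rhodamine-negative libraries it had 1 to 29 counts in mice 1, 2, 3, 4 and 6 and 204 counts in mouse 5, so the group mean of 2.69 ± 5.09 CPM (SD, n = 6) rested largely on 1 mouse. The Prss34 mean was 17.4-fold lower in rhodamine-positive sorts, at 0.154 ± 0.247 CPM (SD, n = 6), and 8.64-fold lower without mouse 5.

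The receptor for IgE is built from an alpha chain, which binds IgE, a beta chain, which amplifies the signal, and a gamma chain that many myeloid Fc receptors share. Fcer1a, the alpha chain, had 0 counts in 5 rhodamine-positive libraries and 10 counts in that of mouse 5. Fcer1a had 6 to 114 counts in every rhodamine-negative library, and was lower in the rhodamine-positive sort of 6 of 6 mice. Ms4a2, the beta chain, had at most 2 counts in any rhodamine-positive library, against 1 count in mouse 4 to 127 counts in mouse 5 in rhodamine-negative libraries. Group means were 0.117 ± 0.286 and 2.74 ± 2.98 CPM for Fcer1a in rhodamine-positive and rhodamine-negative sorts (SD, n = 6 each). For Ms4a2 they were 0.0737 ± 0.0809 CPM in rhodamine-positive and 2.05 ± 3.04 CPM in rhodamine-negative sorts (SD, n = 6 each). The gamma chain gene Fcer1g, which macrophages use for their IgG receptors, went the other way. Fcer1g rose by 0.59 ± 0.11 on the log2 scale (SE, n = 6 pairs) to 2061 ± 146 CPM in rhodamine-positive sorts, against 1415 ± 388 CPM in rhodamine-negative sorts (SD, n = 6 each, edgeR adjusted p = 0.000576), and was higher in 6 of 6 mice.

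Cd200r3 encodes an activating receptor of the CD200 receptor family that marks mouse basophils and mast cells. In rhodamine-positive libraries it had 0 counts in mice 1, 2 and 6, 3 counts in mouse 3 and 12 counts each in mice 4 and 5. In rhodamine-negative libraries Cd200r3 had 11 counts in mouse 4, 42 to 53 counts in mice 1, 2 and 6, 238 in mouse 3 and 471 in mouse 5. It was lower in the rhodamine-positive sort of 5 of 6 mice, and mouse 4 was the exception. The mean was 28.8-fold lower in rhodamine-positive sorts, at 0.325 ± 0.422 CPM, against 9.34 ± 11.7 CPM in rhodamine-negative sorts (SD, n = 6 each). A relative in the same family, Cd200r4, rose by 1.03 ± 0.15 on the log2 scale (SE, n = 6 pairs, edgeR adjusted p = 6.24e-06), to 20.4 ± 6.84 CPM in rhodamine-positive against 9.81 ± 2.56 CPM in rhodamine-negative sorts (SD, n = 6 each).

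Gata2 encodes a zinc finger transcription factor that basophils and mast cells need for their development, and that blood progenitors and endothelial cells also express. Rhodamine-positive libraries had a lowest value of 0, a median of 0.414 and a highest value of 1.05 CPM of Gata2, against 0.515, 5.20 and 38.9 CPM in rhodamine-negative libraries. Gata2 was the member with the most even level in rhodamine-positive sorts, with a count in 5 of 6 libraries and 15 counts at most. Il4 and Il13 encode the signature cytokines of type 2 immunity, which signal through a shared receptor chain. Il4 had 0 counts in mice 4 and 6 and 4 to 15 counts in the other rhodamine-positive libraries, against 13 counts in mouse 4 to 540 counts in mouse 3 in rhodamine-negative libraries. Its mean was 34.3-fold lower in rhodamine-positive sorts, at 0.351 ± 0.435 CPM, against 12.03 ± 16.2 CPM in rhodamine-negative sorts (SD, n = 6 each). Gata2 and Il4 were lower in the rhodamine-positive sort of 6 of 6 mice. Il13 was close to the limit of detection, with 1 count over all rhodamine-positive libraries and 13 over all rhodamine-negative libraries. Its mean rhodamine-positive CPM was 7.73% of the rhodamine-negative one, with a 95% exact interval of 0.201% to 56.9%. That interval pools the counts of the mice, covers counting error only and leaves out the spread between mice. No firmer statement about Il13 is possible at this depth.

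**Figure D1:**
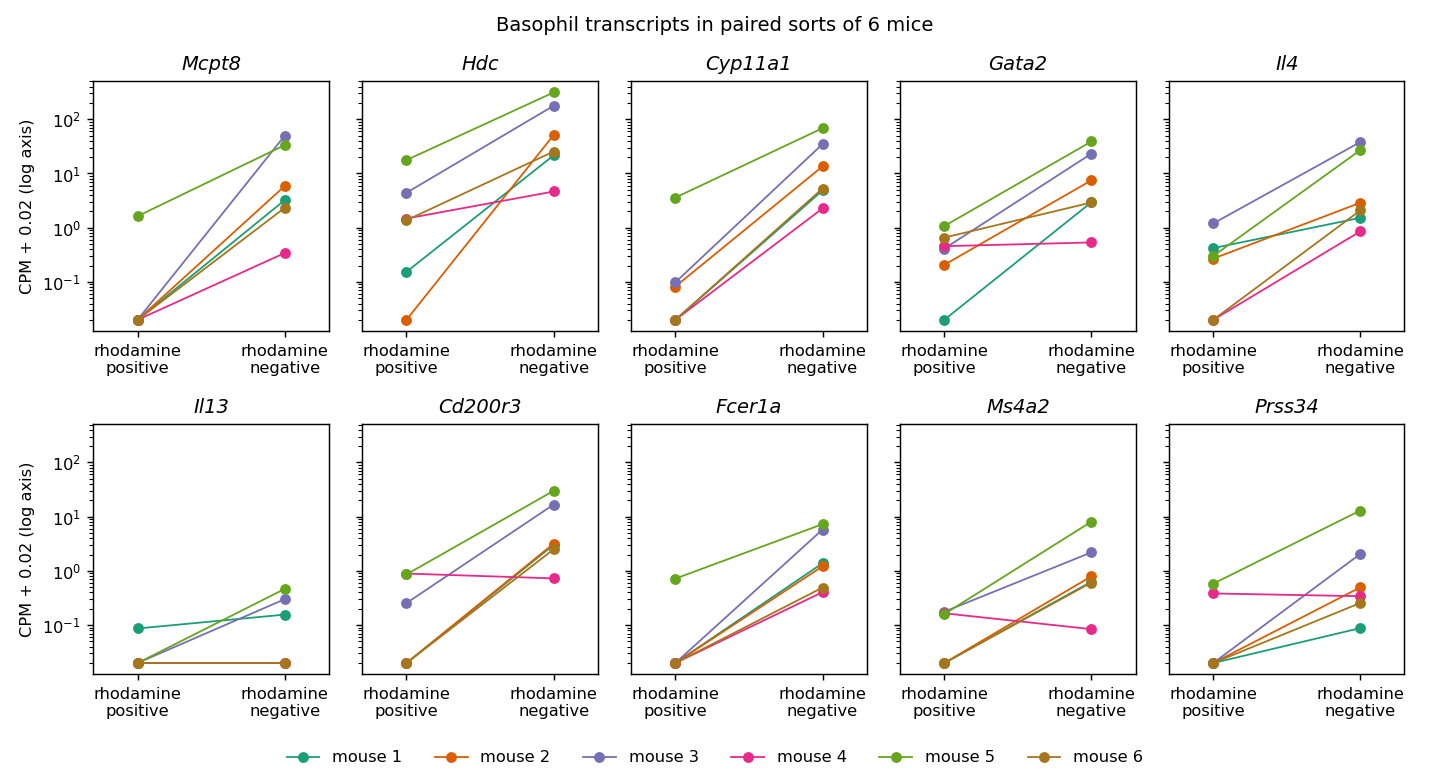
TMM-scaled CPM plus 0.02 (log axis) of the 10 basophil genes in the rhodamine-positive and rhodamine-negative sort of each mouse, with 1 line per mouse and 1 point per library; points at 0.02 have no count. Mcpt8 and Fcer1a have a count in 1 of 6 rhodamine-positive libraries, that of mouse 5, and the lines of mouse 4 rise slightly to the left for Cd200r3, Ms4a2 and Prss34.

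As a group, 6 of the 10 genes were lower in the rhodamine-positive sort of all 6 mice, as 7.36% of all genes were, a share given as background since the genes were picked on this contrast. Cd200r3, Ms4a2 and Prss34 were lower in 5 mice, so that 9 of the 10 were lower in at least 5 (17.2% of all genes), and Il13 in 3. The groups overlapped for all 10 genes: the highest rhodamine-positive library, which was that of mouse 1, 3, 4 or 5, reached or passed the lowest rhodamine-negative one (2.27% of all genes had every rhodamine-positive library below every rhodamine-negative one). The median fitted log2 fold change of the 10 genes was -4.74, and that of all genes tested was -0.23. A filter on low counts set by edgeR's filterByExpr would have removed Il13, Fcer1a, Ms4a2 and Prss34 and kept the other 6, and the authors' deposited log2 table holds 8 of the 10, without Il13 and Ms4a2.

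Per length, Mcpt8 and Hdc had the highest mean levels. In rhodamine-negative sorts Mcpt8 averaged 15.8 and Hdc 15.5 CPM per kilobase of annotated exon, followed by Il4 at 9.80 and Cyp11a1 at 4.48. Fcer1a (2.74), Gata2 (2.34), Prss34 (2.20) and Cd200r3 (1.56) had lower levels per kilobase, and Ms4a2 (0.729) and Il13 (0.119) the lowest. The order of Mcpt8 and Hdc rested on mouse 3, with 49.9 and 27.8 CPM per kilobase, while Hdc was the higher in the other 5 mice. Within the libraries, Cd200r3 was above Ms4a2 and Ms4a2 above Il13 in 6 of 6 mice; the other neighbours in the order of the means changed places in at least 1 mouse. Prss34, above Cd200r3 by its mean, was above it in 2 of 6 mice. The counts could be assigned to the genes with little ambiguity. Stretches of 50 bases shared with transcripts of other genes made up none of the Mcpt8, Gata2, Il4, Il13, Fcer1a and Prss34 transcripts and 2.79% at most of the others, and the annotated genes that overlap Mcpt8 (Mir6949) and Cyp11a1 (Gm17322) had 0 and 4 counts over all libraries. Mcpt8 (ENSMUSG00000022157) lies on the minus strand of chromosome 14, positions 56082166 to 56085273, and Hdc (ENSMUSG00000027360) on the minus strand of chromosome 2, positions 126593667 to 126619299 (mm10, GENCODE vM21).

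The mice differed from each other by far more than the depth of their libraries. Summed over the 10 genes, the rhodamine-negative sorts held 10.04 CPM in mouse 4, 39.2 in mouse 1, 41.7 in mouse 6, 86.5 in mouse 2, 350.04 in mouse 3 and 539 in mouse 5. Their coefficients of variation over the rhodamine-negative libraries ran from 109% for Fcer1a to 190% for Prss34 with a median of 127%. The median was 60.5% over the 33414 genes with a count in these libraries, many with few counts. It was 21.4% over the 15014 genes left by filterByExpr. Mouse 5 was highest and mouse 3 next for 8 of the genes, and mouse 3 was highest for Mcpt8 and Il4. Mouse 4 was lowest for all genes other than Prss34, lowest in mouse 1, and Il13, which had no count in mice 2, 4 and 6. Mcpt8 spanned 155-fold between mouse 3 and mouse 4 and Hdc 67.5-fold between mouse 5 and mouse 4.

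**Figure D2:**
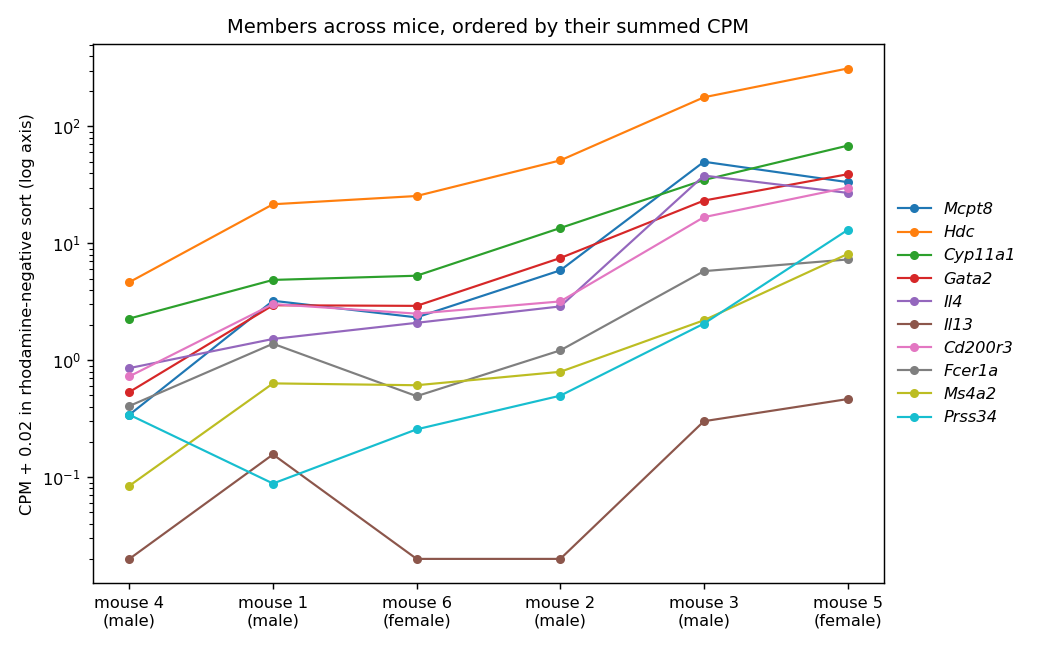
TMM-scaled CPM plus 0.02 (log axis) of each basophil gene in the rhodamine-negative sort of the 6 mice, with 1 line per gene, ordered from the lowest to the highest summed level. Most lines climb from mouse 4, with 10.04 CPM in sum, to mouse 5, with 539 CPM, while Mcpt8 and Il4 peak in mouse 3 and Prss34 is lowest in mouse 1.

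The proportions of the genes to one another were more even than their level. Hdc made up 46.2% to 60.9% of the counts of the 10 genes in each rhodamine-negative library. Mcpt8 made up 5.53% to 8.17% of them in mice 1, 2, 5 and 6, but 14.2% in mouse 3 and 3.21% in mouse 4, where it rested on 5 counts. Il4 was also a larger part in mouse 3, with 540 of 4983 counts, than in mouse 5, with 424 of 8471 counts. Mouse 3 thus had more Mcpt8 and Il4 than mouse 5 and less of each of the other genes.

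Sex, a label that played no part in the choice of the genes, was compared within the rhodamine-negative sorts. The ranges of the sexes overlapped: Hdc had 25.4 and 312.5 CPM in the 2 female mice, against 4.63 to 177 CPM in the 4 male mice. None of the 10 genes passed edgeR's quasi-likelihood test of female against male libraries, where 0.895% of 33414 genes did, 0 of 10 had an unadjusted p under 0.05, and DESeq2 called 0 of 10. Adjusted p-values ran from 0.702 for Prss34 to 0.96 for Mcpt8. The fitted difference was positive for all 10 genes, from 0.29 ± 1.90 for Mcpt8 to 3.21 ± 1.60 for Prss34 on the log2 scale (SE, n = 2 females and 4 males). Intervals this wide leave room for large differences in either direction for Mcpt8. The shared sign rested on mouse 5, and the genes vary together across the mice. The other female, mouse 6, was below the male mean for each of the 10 genes, with 25.4 against 63.7 CPM for Hdc and 0.236 against 0.726 CPM for Prss34. Without mouse 6, which leaves mouse 5 as the only female, the fitted difference was 4.21 for Prss34 and 3.20 for Ms4a2 on the log2 scale.

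The level left in the rhodamine-positive sort was measured within each mouse. The summed CPM of the 10 genes in the rhodamine-positive sort, as a percentage of the rhodamine-negative sort of the same mouse, was 1.53% in mouse 1, 0.576% in mouse 2, 1.84% in mouse 3, 32.6% in mouse 4, 4.90% in mouse 5 and 4.77% in mouse 6. Mouse 4 stood apart from the other mice, with a 95% exact interval of 22.9% to 45.7%, which covers counting error only. The rhodamine-negative library of mouse 4 had the fewest basophil counts of its group, 156. Its rhodamine-positive library had 45, against 9, 8 and 25 in mice 1, 2 and 6 and 82 and 377 in mice 3 and 5. In mouse 4 Mcpt8, Cyp11a1, Il4 and Fcer1a had no count in the rhodamine-positive sort, against 5, 35, 13 and 6 counts in the rhodamine-negative sort. Hdc had 20 and 72 counts, Gata2 6 and 8, Cd200r3 12 and 11, Prss34 5 and 5 and Ms4a2 2 and 1 in the rhodamine-positive and rhodamine-negative sort of mouse 4. Upper bounds of the 95% exact interval were 123% for Mcpt8 and 96.0% for Fcer1a. They lie above the lower bounds of Gata2 (24.2%), Cd200r3 (49.8%), Prss34 (26.0%) and Ms4a2 (11.8%), so these counts do not separate those genes. Cyp11a1, at 12.6% at most, lay below the lower bound of Hdc (18.1%). That pair of genes was picked from many, in 1 mouse and on the contrast by which the genes were chosen, so it is given as description.

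The genes also differed among themselves in the mice rich in basophil transcripts. In mouse 3 Mcpt8 had 0 counts in the rhodamine-positive and 709 in the rhodamine-negative sort, which puts the level at no more than 0.582% (upper bound of the 95% exact interval). Hdc stood at 2.47% in the same mouse (95% exact interval 1.86% to 3.22%), from 56 and 2525 counts, and Il4 at 3.10% (1.72% to 5.16%), from 15 and 540 counts. These intervals come from 1 pair of libraries, cover counting error only and use the contrast on which the genes were chosen, so the differences between genes are given as description. In mouse 5, by contrast, Mcpt8, Hdc and Cyp11a1 were close to each other, at 4.83% (3.04% to 7.33%), 5.65% (4.96% to 6.41%) and 5.22% (3.86% to 6.92%). Gata2 and Il4 lay lower in mouse 5, at 2.70% (1.5% to 4.49%) and 1.04% (0.282% to 2.68%). Il4 was thus above Mcpt8 in mouse 3 and below it in mouse 5.

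**Figure D3:**
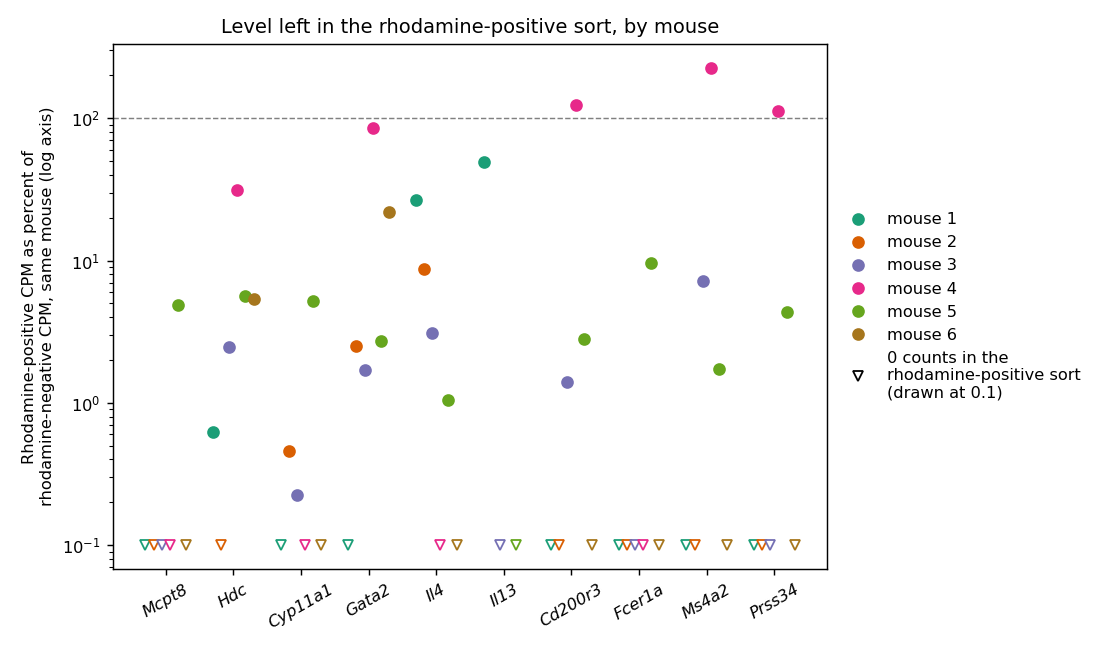
CPM in the rhodamine-positive sort as a percentage of that in the rhodamine-negative sort of the same mouse (log axis), with 1 point per gene and mouse; open triangles, drawn at 0.1, mark 0 counts in the rhodamine-positive sort, and the dashed line marks equal levels. Mouse 4 lies at or above 84.8% for Gata2, Cd200r3, Ms4a2 and Prss34, while its Mcpt8, Cyp11a1, Il4 and Fcer1a are at 0. These points of mouse 4 rest on 12 or fewer counts in the rhodamine-positive sort.

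The rhodamine-positive library of mouse 4 also held the most endothelial RNA. The summed level of 8 endothelial markers was 102 CPM in it, 30.7 to 60.5 CPM in the other rhodamine-positive libraries and 26.1 to 81.7 CPM in rhodamine-negative libraries. The tight junction gene Cldn5 had 451 counts in it and 1 to 54 in the other rhodamine-positive libraries, and the receptor gene Tie1 had 181 and 0 to 6. Endothelial cells express Gata2. The part of such cells in the Gata2 counts of mouse 4 was not tested. None of the 8 endothelial markers passed edgeR's test between the sorts, 2 had an unadjusted p under 0.05, and DESeq2 called 0. In the fit with no term for the mouse, which ignores the pairing, 4 of the 8 passed, Cldn5 and Tie1 among them (edgeR adjusted p = 5.2e-11 and 7.55e-05). The library of mouse 4 held 451 of the 559 Cldn5 and 181 of the 191 Tie1 counts of rhodamine-positive sorts. The pairs went both ways for all 4. Cldn5 and Tek were higher in the rhodamine-positive sort of 3 of 6 mice, and Tie1 and Pecam1 in that of 1.

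Since the basophil genes varied together across the mice and 1 of them encodes a GATA factor, the 250 bases before their transcription starts were read from RefSeq (GRCm38.p6) for GATA motifs. The words searched, on both strands, were AGATAA or AGATAG, and also TGATAA or TGATAG. A word was present in at least 1 window of 8 of the 10 genes and in 8 of their 13 windows. Such a word was present for 29.7% of all 27025 genes with a promoter listed, and in 26.5% of all 32851 windows. Gata2 itself and Mcpt8 had none. The 4 windows below with the words in capitals are those of the IgE receptor chains, of Cd200r3, which has a pair of adjacent words near its start, and of Prss34, and that of Mcpt8 is shown as a window without one. They lie at chr1:173227230-173227479 (minus strand, Fcer1a), chr19:11623720-11623969 (minus strand, Ms4a2), chr16:44943428-44943677 (plus strand, Cd200r3), chr17:25298144-25298393 (plus strand, Prss34) and chr14:56085198-56085447 (minus strand, Mcpt8), and each is written in the direction of its gene.
Fcer1a: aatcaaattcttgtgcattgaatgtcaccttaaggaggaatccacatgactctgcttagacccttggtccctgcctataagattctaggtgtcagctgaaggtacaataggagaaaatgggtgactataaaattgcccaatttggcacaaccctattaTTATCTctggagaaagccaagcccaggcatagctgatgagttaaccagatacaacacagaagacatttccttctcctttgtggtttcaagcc
Ms4a2: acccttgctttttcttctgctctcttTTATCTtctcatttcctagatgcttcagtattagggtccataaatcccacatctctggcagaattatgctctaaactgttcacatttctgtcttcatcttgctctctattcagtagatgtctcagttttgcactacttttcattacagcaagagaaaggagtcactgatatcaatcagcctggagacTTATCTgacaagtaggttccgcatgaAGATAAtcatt
Cd200r3: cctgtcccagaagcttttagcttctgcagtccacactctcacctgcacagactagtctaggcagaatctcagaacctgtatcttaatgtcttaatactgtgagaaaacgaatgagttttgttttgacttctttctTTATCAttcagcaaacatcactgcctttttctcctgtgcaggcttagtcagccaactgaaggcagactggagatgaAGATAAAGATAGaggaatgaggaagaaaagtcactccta
Prss34: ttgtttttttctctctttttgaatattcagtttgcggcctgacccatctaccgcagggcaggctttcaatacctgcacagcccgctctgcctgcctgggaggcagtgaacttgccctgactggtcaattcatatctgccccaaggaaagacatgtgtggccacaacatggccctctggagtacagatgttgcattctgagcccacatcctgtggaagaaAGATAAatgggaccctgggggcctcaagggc
Mcpt8: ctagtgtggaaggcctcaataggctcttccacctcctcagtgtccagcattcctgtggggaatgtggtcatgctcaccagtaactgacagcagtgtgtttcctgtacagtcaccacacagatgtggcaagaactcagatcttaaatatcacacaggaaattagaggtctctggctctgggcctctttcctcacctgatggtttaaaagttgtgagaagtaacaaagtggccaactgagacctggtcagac
A match is a description of these letters and not a binding site, and the search says nothing about which factor acts there.

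Other genes known from basophils were taken from a list of 26, and 14 of them fell, 2 rose and 10 did not pass the test in rhodamine-positive sorts (edgeR, 6.17% of all genes lower and 5.04% higher). The median log2 fold change of the list was -0.73, against -0.23 over all genes tested. The list was drawn up with earlier results of these data known, and many of its genes are known from other leukocytes too. Without mouse 5, 9 of the 26 were lower, as also in the 4 male mice alone. The genes with the largest decreases were those with few counts in rhodamine-positive sorts. Il18r1, a chain of the interleukin-18 receptor, fell by 4.54 ± 0.69 (SE), the integrin gene Itga2, whose product CD49b marks basophils and natural killer cells, by 4.48 ± 0.71, and the growth factor gene Areg fell by 3.33 ± 0.55 on the log2 scale (edgeR adjusted p = 1.05e-05, 2.82e-05 and 2.58e-05). These genes, like Grm6, Cpa3 and Ptger3, were chosen after their values were seen. Il18r1 had 5 counts over the rhodamine-positive and 146 over the rhodamine-negative libraries, and Itga2 5 and 139. Grm6, a glutamate receptor gene, fell by 3.27 ± 0.52 (SE, edgeR adjusted p = 2.21e-05).

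Cpa3, the carboxypeptidase of mast cell and basophil granules, had 6 counts in rhodamine-positive and 60 in rhodamine-negative libraries and fell by 3.04 ± 0.83 on the log2 scale (SE, n = 6 pairs, edgeR adjusted p = 0.0116). Its call was lost when mouse 3 or mouse 5 was left out (adjusted p = 0.107 and 0.0941). Ptger3, a prostaglandin E2 receptor gene, fell by 2.73 ± 0.63 (edgeR adjusted p = 0.00301) and did not pass without mouse 5 (adjusted p = 0.0624). The members of the list with the smallest p were not confined to basophils. Ifitm1, an interferon-induced membrane protein gene, fell to 79.7 ± 21.1 CPM in rhodamine-positive sorts, against 572 ± 228 CPM in rhodamine-negative sorts (SD, n = 6 each, edgeR adjusted p = 2.53e-10). Il18rap, the other interleukin-18 receptor chain, and Slc18a2, the vesicular transporter that loads histamine and other amines, fell by 1.96 ± 0.21 and 1.99 ± 0.28 on the log2 scale (SE, edgeR adjusted p = 3.15e-07 and 3.59e-06). Csf2rb, the common beta chain of the IL-3, IL-5 and GM-CSF receptors, fell by 0.54 ± 0.10, while the IL-3 receptor chain gene Il3ra had a log2 fold change of 0.11 and did not pass. The others that fell were Il1rl1, Crlf2, Cd69 and Osm, of which Il1rl1, Crlf2 and Osm did not pass without mouse 5 (adjusted p = 0.0873, 0.0607 and 0.0588).

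Genes of related cells were examined next. Mast cells share FceRI, histamine and Gata2 with basophils, but store other proteases. Of 12 mast cell genes, 11 had fewer than 10 counts over all 12 libraries, and Tpsb2, Mrgprb1 and Mrgprb2 had none. Kit, the stem cell factor receptor, which dendritic cells and progenitors can also carry, was the exception. It fell by 2.35 ± 0.40 on the log2 scale (SE), to 7.42 ± 4.02 CPM in rhodamine-positive against 41.7 ± 35.1 CPM in rhodamine-negative sorts (SD, n = 6 each, edgeR adjusted p = 0.0126), and did not pass without mouse 2 (adjusted p = 0.0581). Of 10 eosinophil genes, 5 had fewer than 10 counts over all libraries, and 2 fell. The log2 fold changes were -0.72 ± 0.13 for Siglecf and -1.15 ± 0.21 for Ear2 (SE, edgeR adjusted p = 0.00014 and 0.00039). Of 9 genes of type 2 innate lymphoid cells, another source of IL-13, 3 fell and none rose. Il7r fell by 1.16 ± 0.20, Il17rb by 2.04 ± 0.49 and Icos by 1.64 ± 0.42 (SE, edgeR adjusted p = 0.000194, 0.00337 and 0.00615), while the defining factor Gata3 had 1 count over the rhodamine-positive and 6 over the rhodamine-negative libraries and the cytokine Il5 3 and 4. Il17rb did not pass without mouse 5 (adjusted p = 0.189).

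**Figure D4:**
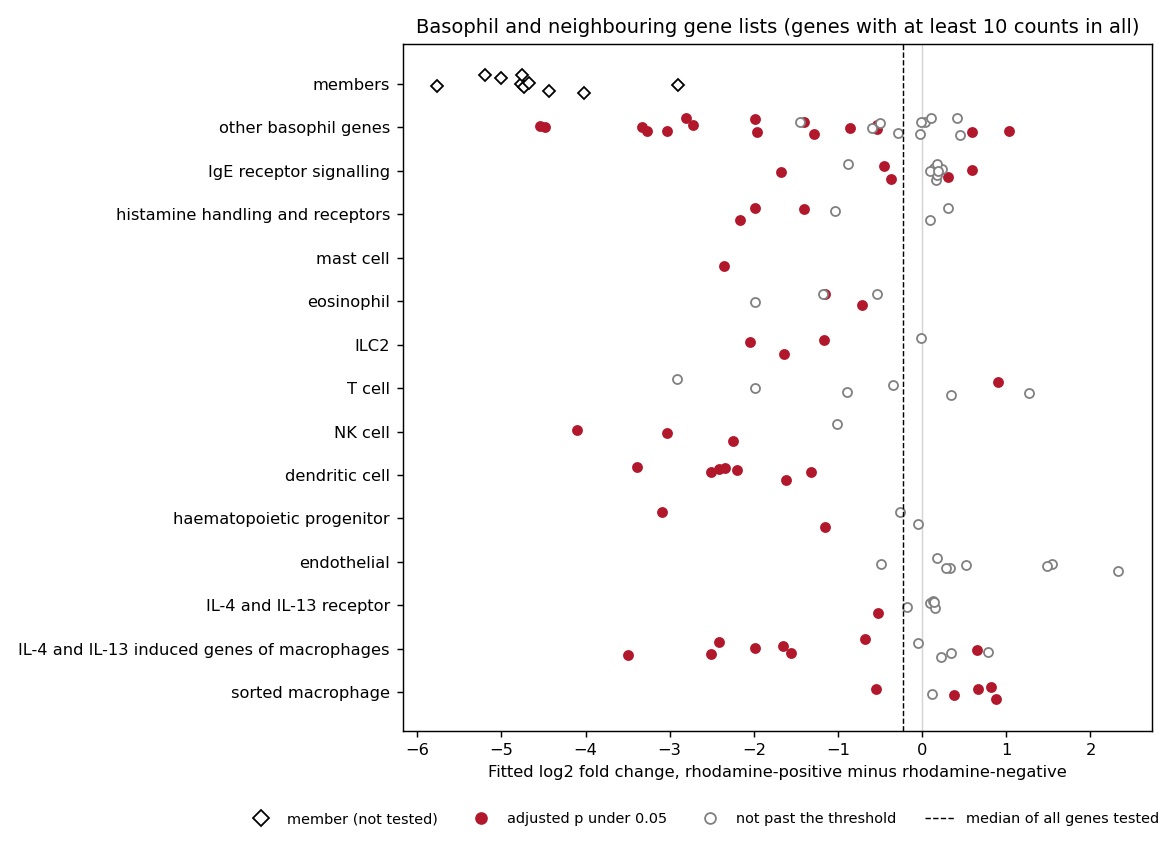
Fitted log2 fold change, rhodamine-positive minus rhodamine-negative, of each gene in the basophil group and 14 other lists, with 1 point per gene; genes under 10 counts in all, or with 0 counts in a whole group, are left out. Diamonds are the 10 basophil genes, which were not tested, filled circles have an adjusted p under 0.05, and the dashed line is the median of all genes tested (-0.23).

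Markers of other leukocytes moved with the basophil genes between the sorts, and their part in the result was not tested. All 7 dendritic cell markers fell, with a median log2 fold change of -2.35 and a summed level of 146 to 267 CPM in rhodamine-positive against 394 to 1419 CPM in rhodamine-negative libraries. Cd209a, Itgae, Flt3 and Clec9a had the smallest p, with log2 fold changes of -3.38, -2.51, -2.35 and -2.41. Of 6 natural killer cell genes, Klrd1, Nkg7 and Prf1 fell, with log2 fold changes of -3.03, -4.10 and -2.25, and none rose. Prf1 lost its call when any of mice 3 to 6 was left out (adjusted p between 0.0508 and 0.273). Of 6 B and plasma cell genes, 1 fell, Jchain, by 7.45 ± 0.42 (SE, edgeR adjusted p = 3.19e-15). Of 9 T cell genes, Cd4, which macrophages express, rose by 0.91 ± 0.21 (SE, edgeR adjusted p = 0.00317). Trbc2, with 0 counts in rhodamine-positive and 27 in rhodamine-negative libraries, fell (edgeR adjusted p = 0.0418) and did not pass without any 1 of the 6 mice (adjusted p between 0.0608 and 0.121). None of 9 neutrophil genes passed edgeR's test, 1 had an unadjusted p under 0.05, and DESeq2 called 1. The dendritic cell list was highest in the rhodamine-negative sort of mouse 5, at 1419 CPM, as the basophil genes were, but stood at 537 CPM in mouse 3, near the other mice, where the basophil genes were second highest.

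Of 7 genes that mark blood progenitors and megakaryocytes, where Gata2 is also active, 3 fell and none rose. Itga2b, the integrin chain CD41, fell by 3.10 ± 0.29, and the homeobox gene Meis1 by 1.16 ± 0.28 on the log2 scale (SE, edgeR adjusted p = 6.13e-09 and 0.00443). Gfi1b, a repressor in the basophil, megakaryocyte and red cell lineages, had 0 counts in every rhodamine-positive library, against 22 counts in mouse 5, 12 in mouse 3, 3 in mouse 2, 1 in mouse 4 and 0 in mice 1 and 6 of the rhodamine-negative libraries. It passed edgeR's test (adjusted p = 0.00987) but neither without mouse 3 or mouse 5 (adjusted p = 0.0657 and 0.206) nor in DESeq2 (adjusted p = 0.161).

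Genes that act beside the members' products were taken from lists. Of 13 genes of IgE receptor signalling, which macrophages use for other Fc receptors, 2 rose (Fcer1g and Vav1) and 3 fell, with a median of 0.17. Vav1, a guanine nucleotide exchange factor gene, rose by 0.31 ± 0.10 on the log2 scale (SE, edgeR adjusted p = 0.0443) and lost its call in the fit with no term for the mouse (adjusted p = 0.134). The number that rose was 1 in that fit, after filterByExpr, with library size alone, with DESeq2 size factors, in male mice alone and when mouse 1, 3, 4 or 5 was left out, and in male mice alone the number that fell was 1. Fyn, a Src family kinase, fell by 1.68 ± 0.22 and the kinase gene Syk by 0.46 ± 0.10 (SE, edgeR adjusted p = 0.000169 and 0.00206). The adaptor gene Gab2 fell by 0.37 ± 0.11 (edgeR adjusted p = 0.0298) and lost its call in the fit with no term for the mouse (adjusted p = 0.0874) and when mouse 1, 3, 5 or 6 was left out (adjusted p between 0.0531 and 0.148). Of 7 genes of histamine handling and receptors, 3 fell and none rose, with a median of -1.03. These were Slc18a2, the receptor gene Hrh2, with a log2 fold change of -1.41 ± 0.15, and the uptake transporter gene Slc22a3, with -2.16 ± 0.62 (SE, edgeR adjusted p = 3.45e-08 for Hrh2 and 0.0155 for Slc22a3). Slc22a3 lost its call when mouse 1 or mouse 2 was left out (adjusted p = 0.0549 and 0.145). None of 10 other steroid synthesis genes passed edgeR's test, 0 had an unadjusted p under 0.05, DESeq2 called 0, and the later enzymes Hsd3b1, Cyp11b1 and Cyp17a1 had 1, 1 and 27 counts over all libraries.

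Il4ra, the receptor chain shared by IL-4 and IL-13, averaged 492.8 ± 158 CPM in rhodamine-positive and 451.5 ± 90.7 CPM in rhodamine-negative sorts (SD, n = 6 each). Of 7 receptor and signalling genes, Il2rg fell by 0.52 ± 0.10 on the log2 scale (SE, edgeR adjusted p = 0.000405) and the others, Il4ra among them, did not pass. Of 12 genes that these cytokines induce in macrophages, 7 fell and 1 rose, with a median of -1.12. Clec10a, Ccl17, Mgl2 and Socs1 had the smallest p, with log2 fold changes of -3.49, -2.42, -2.51 and -1.56, and Arg1 rose by 0.65 ± 0.12 (SE, edgeR adjusted p = 0.000416). Clec10a, Ccl17 and Mgl2 are also expressed by dendritic cells, and whether the level of these genes depends on Il4 was not tested.

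The genes whose pattern over the 6 rhodamine-negative libraries was most like the summed basophil genes were sought among 242 genes with at least 10 counts in 3 of these libraries and an SD of at least 1 on the log2 scale. Likeness was Pearson's r of log2 CPM over 6 libraries, given as a description since the highest of 242 values were picked. Among the 10 highest were Fosl1 (0.995), Adgrg3 (0.993), Rab44 (0.987), Il18r1 (0.982), Sntb1 (0.975), Gzmb (0.972), Padi4 (0.968), Faah (0.966) and Cd209e (0.965). Of these, Il18r1 is also in the list of other basophil genes. Gzmb encodes the protease granzyme B, Rab44 a large Rab protein of granulocytes and mast cells, and Fosl1 a subunit of AP-1. Gzmb had 28.7 CPM in mouse 3, 18.6 in mouse 5, 4.18 in mouse 2, 2.90 in mouse 6, 1.57 in mouse 1 and 0.643 in mouse 4, and so shared with Mcpt8 and Il4 the peak in mouse 3. Gzmb and Mcpt8 lie near each other on chromosome 14 (Gzmb at positions 56258838 to 56262260), and no stretch of 50 bases of the Mcpt8 transcripts occurs in another gene's transcripts.

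The level and spread required of these genes were those of the rhodamine-negative libraries, and the basophil genes they resemble were picked for being low in rhodamine-positive sorts, so their levels in both sorts are given without a test. Gzmb averaged 0.315 ± 0.772 CPM in rhodamine-positive and 9.43 ± 11.5 CPM in rhodamine-negative sorts (SD, n = 6 each), and was lower in 6 of 6 mice. Rab44 averaged 1.49 ± 0.623 CPM in rhodamine-positive and 14.4 ± 18.5 CPM in rhodamine-negative sorts, and was lower in 5 of 6 mice. Fosl1, Cd209e, a lectin gene, and Il18r1 were lower in 6 of 6 mice, and Sntb1 in 5. Adgrg3, an adhesion receptor gene of granulocytes, differed less between the group means, with 6.99 ± 2.53 CPM in rhodamine-positive and 8.07 ± 6.80 CPM in rhodamine-negative sorts (SD, n = 6 each), and was lower in 3 of 6 mice. Padi4 and Faah were lower in 4 of 6 mice.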

How the data were processed

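Polyadenylated RNA of 12 libraries (6 mice, 2 sorts each) was sequenced on an Illumina instrument. The authors deposited raw read counts per gene, as 1 table and 12 single files with equal values, and a table of log2 normalized values for 10605 genes, used here only to see which genes it holds. The submitters' processing notes list build mm10 and these tools: HISAT2 2.1.0, cutadapt, bcl2fastq 2.17, featureCounts 1.4.4, limma and edgeR, with no role or order; strand setting and parameters are not given in the sources used here. Libraries were labelled and paired by mouse from the labels.

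The deposited counts were tested as they stand, with no filter beyond 1 count in any library, since a filter would remove members. The test was edgeR 4.0.16 (R 4.3.3; TMM, glmQLFit in its newer form with robust estimation, mouse as block, Benjamini-Hochberg over all genes, threshold 0.05). That form was chosen after the earlier form gave an infinite prior degree of freedom on the unfiltered table. SE is the absolute log2 fold change over the square root of F. Log2 CPM for likeness used a prior count of 2. Ratios of member levels are of group means of CPM; intervals are 95% exact (Clopper-Pearson) conditional intervals of counts and cover counting error only. On simulated counts of 33530 genes with the library sizes of the paired comparison, 32% of genes altered by 1 and 100% of those altered by 3 (log2) were found, with 6 false calls among 138. For the sex comparison 5% and 93% were found, with 2 false calls among 100. The same dispersion was set for every gene, and the mouse effect of the paired simulation was shared by both sorts. The altered genes were drawn from a middle range of mean counts. Recovery of sparser genes, and of genes as variable as the members, was not simulated.

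The mouse was a block because the series description gives both sorts as from the same animals. Deviations from group means correlated within mice 1 to 6 with r = 0.226, 0.207, 0.289, 0.0774, 0.301 and 0.450 (across genes, which are not independent). The highest r with another mouse was 0.185, 0.187, 0.0380, 0.0203, 0.148 and 0.0188, in the same order, and so close to the same-mouse value in mice 1 and 2. No 2 libraries of a group agreed within sampling noise (lowest chi-square per degree of freedom 20.8 and 17.5 in rhodamine-positive and rhodamine-negative libraries). The members and the 18 other gene lists were chosen with earlier results of these data known. Named genes were the members, up to 4 called genes per list with the smallest p, and the 10 most like the members, of which 1 is not reported here; others were added after their values were seen. Alternatives were a fit without the block, filterByExpr (minimum count 10, total 15), library size alone, DESeq2 size factors, DESeq2 1.42.0, male mice alone, each mouse left out and, for the members, group medians.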

Additional observations from a re-analysis of the deposited data

Results flagged for a closer look

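In 9 of 22 groups of 6 libraries examined, a single library stood far from the others (its gap to the nearest exceeded 0.625 of the range), a rule that flags about 1 group in 20 by chance when values are normal. The CPM of these genes is far from normal, with coefficients of variation of 109% to 190% in rhodamine-negative sorts, so that rate does not apply to them. In groups with 5 libraries at 0 (Mcpt8, Fcer1a and Il13 in rhodamine-positive sorts) any count in the sixth is flagged. Genes of 1 cell type share their mice, so these are not separate observations. In rhodamine-positive sorts the library of mouse 5 was highest and apart for Mcpt8 (1.61 CPM, next 0), Hdc (17.65 CPM, next 4.39), Cyp11a1 (3.57 CPM, next 0.0784), Fcer1a (0.701 CPM, next 0) and the sum of the 10 genes (26.4 CPM, next 6.43). The library of mouse 3 was apart for Il4 (1.18 CPM, next 0.400) and that of mouse 1 for Il13 (0.0667 CPM, which is 1 count). In rhodamine-negative sorts mouse 5 was apart for Ms4a2 (8.08 CPM, next 2.18) and Prss34 (12.98 CPM, next 2.04).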

How the results depend on the processing

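No called gene named here changed direction in any alternative, nor did the ratio of any member. With no replicate block, 1255 genes were called higher and 2174 lower, against 1781 and 2180 with the block. Without the block Gab2 and Vav1 lost their calls. Cldn5 and Tie1 gained one, with most of their rhodamine-positive counts in the library of mouse 4. In male mice alone 19 genes that otherwise passed missed the threshold, Grm6, Syk, Meis1 and Nkg7 among them. With library size alone 770 were higher and 3323 lower, and in male mice alone 971 and 1287; leaving out each mouse gave 1194 to 1729 higher and 1634 to 2090 lower. Of the other basophil genes, 9 were lower after filterByExpr (20 of 26 tested) and in male mice alone, and 9 to 16 with a mouse left out; 4 were higher with DESeq2 and with the earlier form of edgeR's test, and 2 to 4 with a mouse left out. The log2 ratio of means was -8.15 for Mcpt8 (against the floor), -8.62 for Cyp11a1 and -2.65 for Il13 in male mice alone; with medians it was -8.24 for Cyp11a1 and -3.22 for Il4, and could not be had where a median was 0 (Mcpt8, Il13, Fcer1a and Prss34). With a mouse left out it spanned -8.17 (against the floor) to -4.80 for Mcpt8, -8.75 to -4.70 for Cyp11a1, -3.69 to -1.75 for Il13 (-1.75 without mouse 1 is against the floor and reads as at least 3.36-fold lower), -5.26 to -4.33 for Hdc, -5.14 to -4.49 for Gata2, -5.37 to -4.63 for Il4, -5.68 to -4.52 for Cd200r3, -5.42 (against the floor) to -3.93 for Fcer1a, -5.37 to -3.80 for Ms4a2 and -4.82 to -3.11 for Prss34. Between sexes 299 genes were called, 36 after filterByExpr and 119 to 1670 with a mouse left out, and 0 to 2 members. The cause of these shifts was not tested, and the 2 female mice limit that comparison. Ranking by Spearman's rho, where 26 genes tied at or above the tenth, kept 9 of the 10 genes most like the members, as did library size alone. Depth limits Il13, with 14 counts in all, and every value from under 10 counts.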

Other observations

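Il4 and Il13 lie in the type 2 cytokine cluster of chromosome 11, with Rad50 between Il13 and Il5 and Kif3a beside Il4. Rad50 and Kif3a did not share the pattern of Il4 and Il13. Rad50, a DNA repair gene, averaged 37.5 ± 5.42 CPM in rhodamine-positive and 34.1 ± 3.01 CPM in rhodamine-negative sorts (SD, n = 6 each) and did not pass (edgeR adjusted p = 0.678). Kif3a, a kinesin gene, rose by 0.70 ± 0.15 on the log2 scale (SE, n = 6 pairs, edgeR adjusted p = 0.00137), higher in 6 of 6 mice. Il5, the third cytokine of the cluster, had 3 counts over the rhodamine-positive and 4 over the rhodamine-negative libraries, too few to show a pattern. Irf1, farther along, fell by 0.89 ± 0.10 (SE, edgeR adjusted p = 9.89e-08).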
